A study of Mus musculus with 2 samples.

Results

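The cells described here were heart B cells that carried transcripts of Vpreb3 but none of Cr2 or Fcer2a, the genes of the receptors CD21 and CD23. They were chosen by measured values: a droplet was taken when it held at least 2000 gene UMIs (unique molecular identifiers, each marking a captured mRNA molecule), at most 10% of them from mitochondrial genes, at least 1 UMI of Cd79a (a signalling chain of the B cell receptor), at least 2 of Vpreb3 and 0 of Cr2 and Fcer2a, with a UMI of at most 2 of the 6 B1 cell genes Bhlhe41, Zbtb32, Ctla4, Cd9, S100a6 and Nid1. Of 5688 droplets that passed the limits up to Cd79a (Cd79a cells), 745 met the rule, 601 of 2077 in the neonatal library and 144 of 3611 in the adult library. Live B cells had been sorted by surface markers from digested hearts of naive C57BL6/J mice on a single day and run as 1 droplet library per age. The neonatal library came from mice aged 2 weeks, male and female together, and the adult library from male mice aged 8 weeks. For each age 6 hearts were pooled, as 2 tubes of 3. With 1 library per age no test across animals was possible, and age, sex mix, pool and library cannot be told apart; every interval below is an exact 95% interval that covers counting error only.

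Transitional B cells are the newest B cells to leave the bone marrow. They enter the blood and spleen with surface IgM, carry the AA4.1 antigen encoded by Cd93 and high CD24, and gain CD21, CD23 and IgD as they mature, a step that depends on survival signals through the BAFF receptor. Vpreb3 is a small immunoglobulin-domain protein of early B lineage cells, related to a component of the surrogate light chain.

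The neonatal library held 26866958 gene UMIs and the adult library 49500780. The cells that met the rule were shallower than the other Cd79a cells of their library, with a median of 5185 against 6393.5 UMIs in the neonatal and 4168.5 against 6302 in the adult library. Depth also enters the rule, since neither Cr2 nor Fcer2a was detected in 71.3% of neonatal and 46.7% of adult Cd79a cells once each was thinned to 2000 UMIs, against 49.7% and 18.0% as sequenced. The libraries shared 110 barcodes with at least 500 UMIs in both. Of the selected cells, 0 neonatal cells and 1 adult cell had such a barcode, against 61 and 44 of the other Cd79a cells.

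The selected cells made up 28.9% of neonatal Cd79a cells (27.0 to 30.9) and 3.99% of adult ones (3.37 to 4.68). At least 2 Vpreb3 UMIs were present in 54.1% and 35.8% of Cd79a cells. Among neonatal cells with Vpreb3, 188 were removed for Cr2 and a further 325 for Fcer2a. In the adult library 753 were removed for Cr2 and 391 for Fcer2a, so most adult cells with Vpreb3 also carried a receptor transcript. The limit on B1 genes removed only 9 neonatal and 3 adult cells. When every cell was first thinned to 2000 UMIs, the shares were 18.3% (16.7 to 20.1) and 4.28% (3.64 to 4.99). Of the cells selected as sequenced, 51.4% of the neonatal and 48.6% of the adult ones still met the rule after thinning. Of those that met it after thinning, 82.4% and 45.8% had met it as sequenced, so more of the thinned adult group was made of other cells.

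**Figure D1:**
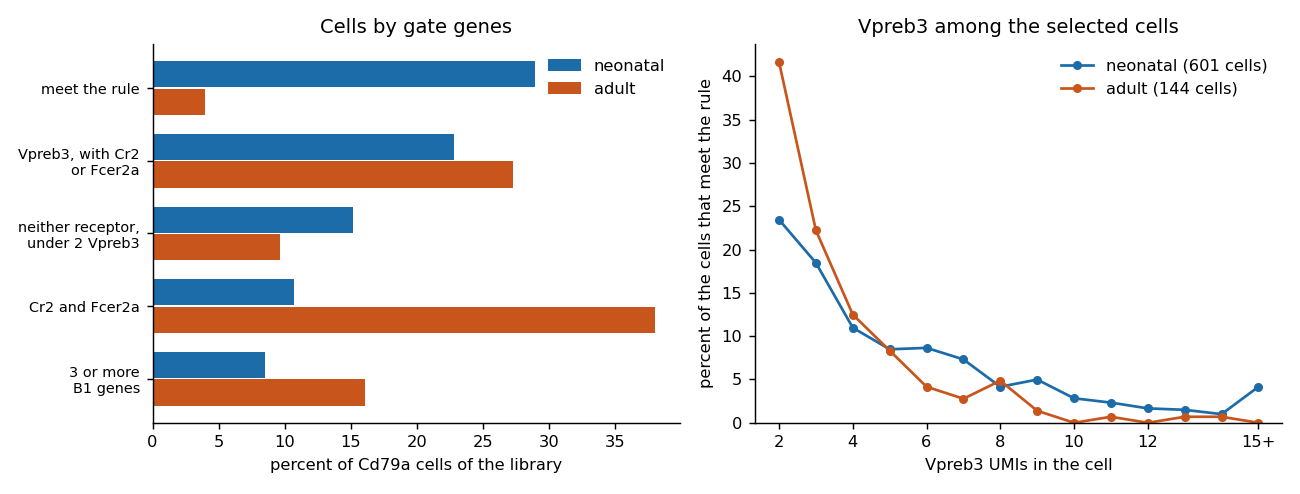
Left, percent of the Cd79a cells of each library (x axis) in 5 classes set by the gate genes. Cells with both Cr2 and Fcer2a can also be in the class with Vpreb3 and a receptor or in that with at least 3 B1 genes. The other classes do not overlap. Right, percent of the selected cells (y axis) by their number of Vpreb3 UMIs (x axis). The selected cells were 28.9% of neonatal and 3.99% of adult Cd79a cells, and more of the adult ones had only 2 Vpreb3 UMIs.

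Vpreb3 itself, which chose the cells, had a median of 4 UMIs per selected neonatal cell and 3 per adult cell, with highest values of 42 and 14. In the neonatal library 141 cells had 2 UMIs, 177 had 3 to 4 and 283 had 5 or more. The adult numbers were 60, 50 and 34. The selected cells held 53.6% of the Vpreb3 UMIs of neonatal Cd79a cells and 8.53% of the adult ones. Just outside the threshold, 130 neonatal and 109 adult cells without either receptor and with at most 2 B1 genes had 1 Vpreb3 UMI. Spib in those cells was 203 and 97.9 CPM (counts per 1000000 UMIs), against 338 and 181 CPM in the selected cells with 2 UMIs. Near-empty droplets had Vpreb3 at 343 and 217 CPM, which at their UMI load would put 0.0192 and 0.0199 free UMIs in a cell, while Cd79a cells averaged 3.01 and 1.70.

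For the comparison, a gene's UMIs were added up over the selected cells and over the other Cd79a cells of the library and divided by the total of each side, leaving out the 10 gate genes. A log2 ratio above 0 means a higher level in the selected cells. A gene counted as measured when at least 50 UMIs would be expected on the smaller side, and as higher or lower when it passed 1.5-fold. In the neonatal library 194 of 6092 measured genes were higher (3.18%) and 163 lower (2.68%). Among adult cells 32 of 1749 were higher (1.83%) and 38 lower (2.17%). The median over all measured genes was 0.09 and 0.02. With the ratios centred on that median, 120 neonatal genes were higher and 230 lower, and 27 and 45 adult ones. Weighting the other cells to the depths of the selected cells gave 28 higher and 14 lower adult genes. Of the 34 higher neonatal genes that were measured in both libraries, 33 had the same sign in the adult library and 14 were past the fold there, and of 46 lower ones 44 and 19 were. Of all 1747 genes measured in both, 67.7% had the same sign.

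Immature B cell genes were higher in the neonatal selected cells. Of 13 genes on this list 8 were measured, 6 were higher and 0 lower, with a median log2 ratio of 0.79. Sox4, a transcription factor of lymphoid progenitors, was at 92.4 CPM in the selected and 25.1 CPM in the other neonatal cells, a log2 ratio of 1.88 (1.66 to 2.11). Adult Sox4 was at 43.5 and 11.6 CPM (log2 1.90, 1.33 to 2.43), from 31 UMIs in the selected cells. The higher level was thus of like size at both ages, though the adult gene was below the measured limit. Spib, an ETS factor that works with PU.1 in B cells, was at 413 against 186 CPM in the neonatal library (1.15, 1.05 to 1.24) and at 223 against 124 CPM in the adult library (0.85, 0.61 to 1.08). Ly6d, a surface protein of committed B cell precursors, was at 3990 against 2070 CPM (0.95, 0.92 to 0.98) and at 3100 against 2070 CPM (0.58, 0.52 to 0.64). Neonatal Cd24a, which encodes the heat-stable antigen CD24, had a log2 ratio of 0.77, Ms4a1 (CD20) 0.82 and Myb 0.62. In the adult library 1 of 5 measured genes of the list was higher, Spib, and the median was 0.29. This adult median was 0.56 with the other cells weighted to the same depths.

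Cd93, the defining surface marker of transitional cells, was sparse. It was at 29.4 CPM in the selected and 21.1 CPM in the other neonatal cells (log2 0.48, 0.13 to 0.81), short of 1.5-fold. In adult cells it was at 29.5 and 10.4 CPM (log2 1.5, 0.79 to 2.13), from 21 UMIs, too few to count as measured, and the ratio fell to 0.66 when cells were thinned before selection. A Cd93 UMI was seen in 13.1% of selected and 14% of other neonatal cells as sequenced, and in 5.49% and 3.73% after thinning. Neonatal cells with at least 3 B1 genes had Cd93 at 9.57 CPM (6.62 to 13.4), the lowest of the compared classes. Neonatal cells with at least 2 Vpreb3 UMIs, a receptor transcript and at most 2 B1 genes had it at 26.2 CPM (21.4 to 31.7). That interval overlapped the one of the selected cells (23.9 to 35.6). The neonatal label thus rested on Sox4, Spib, Ly6d and Cd24a rather than on Cd93. In the adult library Spib was the single measured gene of the immature list past the fold.

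Of the genes of earlier precursors, Rag1 was present. Rag1 encodes a subunit of the recombinase that assembles antigen receptor genes and is shut off in mature B cells. The selected neonatal cells held 35 Rag1 UMIs (10.1 CPM, 7.02 to 14) and the other 1476 Cd79a cells 16 (1.24 CPM, 0.707 to 2.01). In the adult library there were 5 UMIs in the selected cells (7.01 CPM, 2.28 to 16.4) and 4 in the other 3467 (0.118 CPM, 0.0321 to 0.302). Both pairs of intervals lay apart, and near-empty droplets had Rag1 at 2.38 and 0.242 CPM. The UMIs came from 17 neonatal cells, 2.83% of the selected cells (1.66 to 4.49), of which 14 had at least 5 Vpreb3 UMIs, and from 3 adult cells, all with at least 5. Among the other neonatal cells 0.474% had a Rag1 UMI, and those 7 cells, of which 6 also had at least 5 Vpreb3 UMIs, had a median of 34440 UMIs against 5853 in the 17 selected ones. The 315 neonatal and 349 adult cells with neither receptor, under 2 Vpreb3 UMIs and at most 2 B1 genes had 0 Rag1 UMIs, and the 177 neonatal cells with at least 3 B1 genes had 8. The 474 neonatal cells with at least 2 Vpreb3 UMIs, a receptor transcript and at most 2 B1 genes had 7 (1.75 CPM, 0.703 to 3.6). The 223 neonatal cells with both Cr2 and Fcer2a, which can share cells with these classes, had 9 (3.61 CPM, 1.65 to 6.85). Of the 8 pro-B and pre-B marker genes 5 had 0 UMIs in the selected cells of both libraries, Rag2, Dntt, Igll1, Vpreb2 and Erg. The summed list was at 21.9 and 8.74 CPM in the selected and other neonatal cells (1.32, 0.89 to 1.76) and at 14.03 and 2.33 CPM in the adult ones (2.59, 1.48 to 3.54). Its most abundant neonatal gene, the interleukin-7 receptor gene Il7r, was at 11.5 and 6.88 CPM (0.74, 0.17 to 1.30) from 40 UMIs, below the measured limit.

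**Figure D2:**
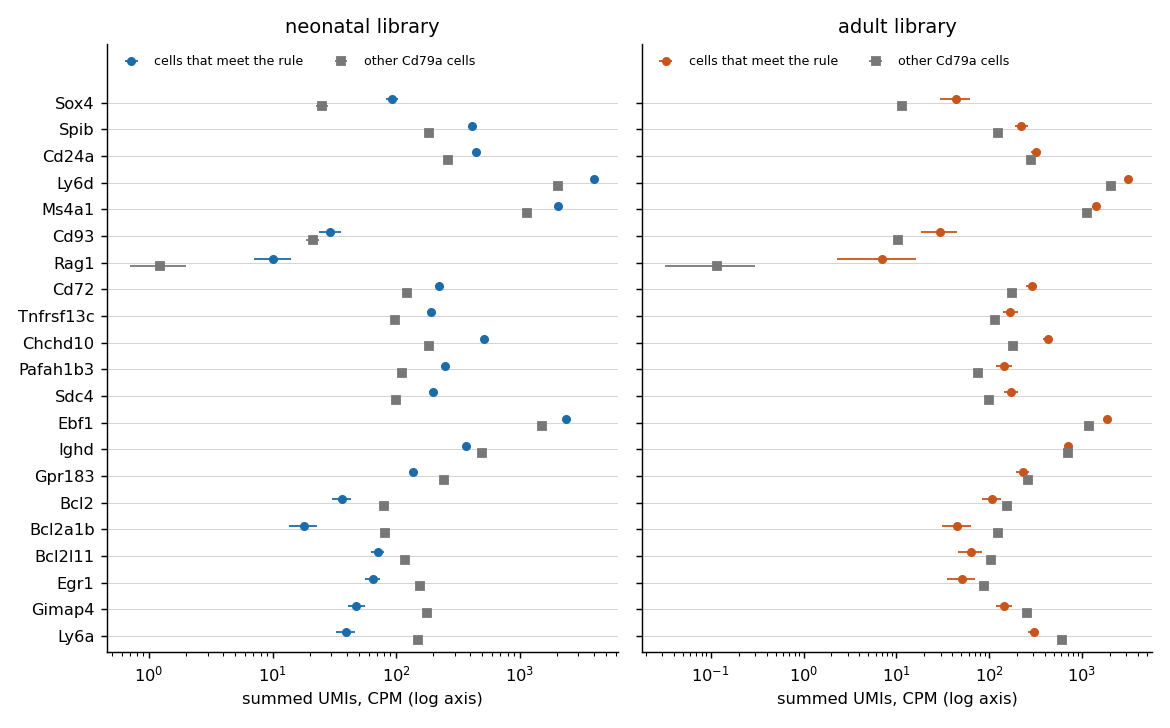
Levels of 21 genes as CPM of summed UMIs (x axis, log scale) in the selected cells (circles) and the other Cd79a cells (squares) of the neonatal (left) and adult (right) library, with exact 95% counting intervals. Spib was higher and Bcl2a1b, Gimap4 and Ly6a lower in the selected cells of both libraries. Intervals of Sox4 and Rag1 also lay apart, but adult Sox4 and Rag1 at both ages were below the measured limit.

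Of the 12 genes of mature follicular B cells, all measured, 4 were lower and 0 higher in the neonatal selected cells, with a median log2 ratio of -0.45, which was -0.82 with the other cells weighted to the same depths. Gpr183, the oxysterol receptor that guides B cells to the follicle edge, was at 138 CPM in the selected and 246 CPM in the other neonatal cells (-0.83, -0.97 to -0.69). Ighd, the heavy chain of IgD, was at 369 and 500 CPM (-0.44, -0.53 to -0.35), short of 1.5-fold. Among the other neonatal cells it was at 587 CPM with both receptor transcripts and at 209 CPM with at least 3 B1 genes. In the adult library 0 of 9 measured genes were past the fold in either direction, and the median was -0.03, or -0.36 with weighting. Adult Ighd was at 700 and 714 CPM (-0.03, -0.16 to 0.10) and adult Gpr183 at 230.1 and 260 CPM (-0.18, -0.41 to 0.05). The adult selected cells, chosen for 0 receptor UMIs, thus had these 2 mature genes near the pooled level of the other cells. That pool was mixed. Adult Ighd was at 785 CPM with both receptor transcripts and at 963 CPM with at least 2 Vpreb3 UMIs and a receptor. It was at 649 CPM with neither receptor and under 2 Vpreb3 UMIs, and at 436 CPM with at least 3 B1 genes. Gpr183 was at 270, 314, 263 and 184 CPM in these classes. The last class held 12696060 of the 33910407 UMIs of the pool. Of the neonatal homing genes 5 of 13 measured were lower and 0 higher, among them the integrin chains Itgb7 (-1.01) and Itgb1 (-0.88), while Ccr7 was at 0.12 and Cxcr4 at 0.06. In the adult library 1 of 10 measured homing genes was lower and 0 higher. That gene was Itgb1 (-1.02), whose direction turned with weighting by depth, while adult Itgb7 was at -0.17.

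Survival genes differed in opposite directions. Tnfrsf13c, the BAFF receptor, was at 193 CPM in the selected and 97.8 CPM in the other neonatal cells (0.98, 0.84 to 1.12), and at 170 and 115 CPM in the adult library (0.57, 0.29 to 0.83). Bcl2, the antiapoptotic protein of long-lived lymphocytes, was at 36.6 and 79.7 CPM in the neonatal (-1.12, -1.40 to -0.86) and at 107 and 156 CPM in the adult library (-0.55, -0.89 to -0.22). The BAFF receptor was thus raised and Bcl2 lowered, both short of 1.5-fold in the adult library. Bcl2a1b, a relative of Bcl2 induced by NF-kB, was at 17.9 and 81.4 CPM (-2.19, -2.58 to -1.82) and at 44.9 and 124 CPM (-1.47, -2.02 to -0.97). Bcl2a1b and Bcl2a1d are near-identical copies, so the division of reads between them is uncertain. Bcl2l11, which encodes the proapoptotic BIM, was also lower, at 71.1 and 119 CPM (-0.74, -0.94 to -0.55) and at 63.1 and 104 CPM (-0.72, -1.17 to -0.29), though the adult direction turned when cells were thinned before selection. Of 10 neonatal genes measured on the list, 1 was higher and 5 lower, and of 7 adult genes 0 and 2.

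Antigen receptor genes were mostly near or above the level of the other cells. Neonatal Ighm was at 5029 and 4334 CPM (0.21), and Cd79b, the partner of Cd79a, at 2553 and 1597 CPM (0.68). The inhibitory receptor gene Cd72 was at 222 and 122 CPM in the neonatal (0.87, 0.74 to 0.99) and at 288 and 178 CPM in the adult library (0.69, 0.49 to 0.90). In all, 4 of 17 neonatal and 2 of 16 adult genes on the list were higher and 0 lower. Iglc1, a lambda light chain constant gene, was at 2720 and 1410 CPM (0.95, 0.92 to 0.99) and at 2140 and 899 CPM (1.25, 1.18 to 1.33). Reads of Iglc1, Iglc2 and Iglc3 can be divided wrongly among these similar genes, so light chains were also called per cell from Igkc against their sum. By that call 20.1% of selected neonatal cells were lambda (17.0 to 23.6) against 14.1% of the others (12.4 to 16.0), and 13.9% (8.69 to 20.6) against 7.82% (6.94 to 8.76) of adult cells. Lambda was also frequent in cells with at least 3 B1 genes, 24.9% and 12.6%, so a high share was not limited to the selected cells. One selected adult cell held 22.9% of the Ighm UMIs and 88.7% of the Jchain UMIs of the group, which makes adult levels of both depend on it.

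Of the genes induced by antigen receptor engagement 4 of 10 measured were lower and 0 higher in the neonatal selected cells, Nr4a1, Myc, Egr1 and Egr3. Nr4a1, which encodes NUR77, was at 260 and 569 CPM in the neonatal (-1.13, -1.23 to -1.03) and at 414 and 455 CPM in the adult library (-0.14, -0.31 to 0.03). Myc was lower by a similar amount in the neonatal library (-1.17). Egr1 had log2 ratios of -1.26 and -0.79, but its neonatal ratio was 0.11 when cells were thinned before selection, and its adult direction turned with weighting by depth. The adult list had 1 of 8 higher, the phosphatase gene Dusp2 (0.85), and 1 lower. Immediate-early genes, which tissue digestion can also induce, had 3 of 10 lower in the neonatal library (Fos, Dusp1 and Atf3) and 2 of 10 in the adult library (Dusp1 and Atf3).

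Among B lineage transcription factors, Ebf1, which specifies the lineage, was higher at both ages, at 2390 and 1530 CPM in the neonatal (0.65, 0.61 to 0.68) and at 1870 and 1190 CPM in the adult library (0.66, 0.58 to 0.73). Irf8 (0.71) and Zeb2 (0.82) were higher in the neonatal library and Bach2 (0.71) in the adult library, 3 of 20 and 2 of 16 measured, with 0 lower. Pax5 was at 0.27 in the neonatal library. Of the cell cycle list 2 of 6 measured neonatal genes were lower and 0 higher. Mki67 was one of them, at 20.7 and 31.7 CPM, but 1 cell held 31.9% of its UMIs in the selected cells and its sign changed without shared barcodes. Below the measured limit, neonatal Cdk1 (0.93, 0.38 to 1.46) and Ccna2 (0.78, 0.12 to 1.42) had ratios above 0, from 45 and 31 UMIs. In each, 1 selected cell held much of them, 35.6% and 38.7%. The intervals of Birc5 (-0.02) and Ccnb1 (0.24) held 0. In the adult selected cells Mki67 had 2 UMIs. Antigen presentation genes had 0 past the fold at either age, and of the surrogate light chain and recombination list 1 of 3 measured neonatal genes was higher, the end joining factor gene Xrcc6 (1.01). Of the interferon-response list 0 of 3 neonatal genes passed the fold at this depth. Of the fetal B lymphopoiesis list 2 neonatal genes were measured and neither passed it, Arid3a at 0.20 and Igf2bp3 at 0.13.

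The study had listed genes for CD21- CD23- heart B cells. Without Vpreb3, 8 of 19 were higher and 0 lower in the neonatal selected cells (median 0.39), and 3 of 17 and 0 in the adult ones (median 0.35). That list was chosen by the study on these same libraries and is not independent evidence.

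Ranked over all measured genes with at least 100 CPM on either side, 4 genes were among the 10 most raised in both libraries: Chchd10, Pafah1b3, Sdc4 and Spib. Gimap4, Lgals1 and Ly6a were among the 10 most lowered in both. Pafah1b3, a subunit of a platelet-activating factor hydrolase, was at 249 and 112 CPM in the neonatal (1.15, 1.02 to 1.27) and at 144 and 76.3 CPM in the adult library (0.92, 0.62 to 1.21). Sdc4, the surface proteoglycan syndecan-4, was at 200 and 101 CPM (0.99, 0.85 to 1.12) and at 173 and 99.9 CPM (0.79, 0.52 to 1.05). The scaffold protein gene Akap12 (1.91, 1.72 to 2.10) and the TRAF-binding adaptor gene Tifa (1.64, 1.43 to 1.84) led the neonatal ranking. They fell below the measured limit in the adult library, where their ratios were 2.15 (1.64 to 2.62) and 2.40 (1.87 to 2.89) from 40 and 37 UMIs.

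On the lower side, Gimap4, a GTPase of lymphocyte survival, was at 47.8 and 179 CPM in the neonatal (-1.90, -2.14 to -1.68) and at 144 and 257 CPM in the adult library (-0.83, -1.13 to -0.55). Ly6a, which encodes Sca-1, was at 39.2 and 151 CPM (-1.95, -2.21 to -1.70) and at 303 and 612 CPM (-1.01, -1.21 to -0.82). The Ly6a level of the selected adult cells was above that of the other neonatal cells. Jchain, the joining chain of secreted IgM, was at 1.73 and 107 CPM in the neonatal library, but 1 cell held 56.1% of the Jchain UMIs of the other cells and 1.96% of them had any. Lgals1 (galectin-1) was at 56.4 and 151 CPM and at 56.1 and 118 CPM, but its adult direction turned with weighting by depth (0.13). Ly6a, Lgals1 and Cd44 were highest in cells with at least 3 B1 genes, which the rule keeps out, with neonatal levels of 339, 416 and 209 CPM there. Neonatal Gimap4 (283 CPM), Egr1 (282 CPM), Bcl2l11 (149 CPM) and Bcl2a1b (96.5 CPM) were also highest there, as were adult Gimap4, Bcl2l11 and Bcl2a1b (305, 116 and 141 CPM). Neonatal Bcl2 and Nr4a1 were instead highest in cells with both receptor transcripts. Cells with at least 3 B1 genes held 3554311 of the 12929892 UMIs of the other neonatal cells.

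**Figure D3:**
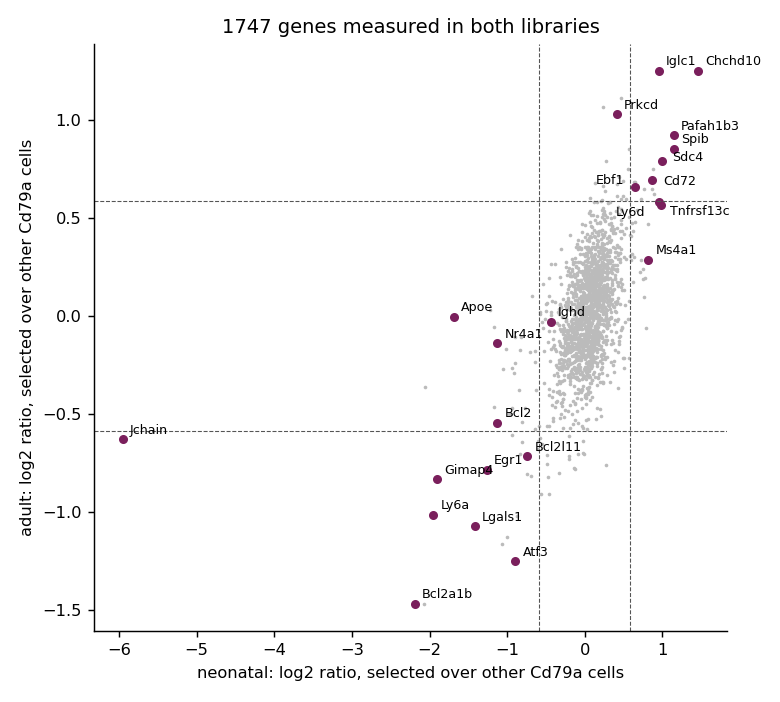
Log2 ratio of the selected over the other Cd79a cells in the neonatal (x axis) and adult (y axis) library for the 1747 genes measured in both, named genes in purple and dashed lines at 1.5-fold. Chchd10, Iglc1, Pafah1b3 and Spib lay past the fold in both libraries on the higher side and Bcl2a1b, Ly6a and Gimap4 on the lower side, while Nr4a1 passed the fold on the lower side in the neonatal library alone.

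Chchd10, a mitochondrial protein gene, had the strongest raised ratio of the 4 shared genes in both libraries, at 513 and 187 CPM in the neonatal (1.46, 1.37 to 1.55) and at 429 and 180 CPM in the adult library (1.25, 1.08 to 1.42). It is the neighbour of Vpreb3 on chromosome 10, at chr10:75933130-75937747 on the plus strand in GENCODE for GRCm38, with Vpreb3 at chr10:75943057-75949657 on the same strand. The bases between them were 5309 from the GENCODE gene start of Vpreb3 and 10552 from its RefSeq start, which lies inside the GENCODE gene. Over all Cd79a cells thinned to 2000 UMIs, Chchd10 was at 198, 312 and 575 CPM in neonatal cells with 0, 1 and at least 2 Vpreb3 UMIs, and at 189, 291 and 414 CPM in adult cells. The nearby genes Smarcb1 (54.1, 45.1 and 52.3 CPM) and Mif (178, 203 and 215 CPM) had overlapping counting intervals over the same neonatal bins. Genes elsewhere in the genome also had higher levels in the neonatal cells with most Vpreb3, with Spib at 183, 290 and 403 CPM and Pafah1b3 at 116, 152 and 269 CPM. In adult cells Spib was at 118, 117 and 183 CPM and Pafah1b3 at 74.0, 69.1 and 75.1 CPM. Whether reads of the 2 genes were assigned apart was not tested. The 250 bases before the RefSeq start of each gene (GRCm38.p6) are shown because the genes moved together. Capitals mark the octamer ATGCAAAT, the letters bound by OCT factors in immunoglobulin promoters, or its reverse complement ATTTGCAT, letters picked after reading these windows. The Vpreb3 window is chr10:75948050-75948299 and the Chchd10 window chr10:75932880-75933129, both on the plus strand.

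Vpreb3: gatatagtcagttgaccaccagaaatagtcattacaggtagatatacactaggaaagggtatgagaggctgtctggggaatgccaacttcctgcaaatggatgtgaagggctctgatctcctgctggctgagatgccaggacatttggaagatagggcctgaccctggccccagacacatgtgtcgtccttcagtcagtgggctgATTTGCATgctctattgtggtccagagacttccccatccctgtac

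Chchd10: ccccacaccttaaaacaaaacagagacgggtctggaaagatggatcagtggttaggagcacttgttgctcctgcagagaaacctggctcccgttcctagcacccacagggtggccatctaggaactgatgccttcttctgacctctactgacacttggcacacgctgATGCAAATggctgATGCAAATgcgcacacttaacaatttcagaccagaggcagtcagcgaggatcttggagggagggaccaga

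Vpreb3 held 1 octamer and Chchd10 2, while 1.60% of 32851 RefSeq windows of this length held it on either strand. Among the 10 most raised neonatal genes 5 had a window, and Chchd10 alone of these held the octamer. A match of letters is a description and not a binding site.

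Within the selected cells, levels varied with the number of Vpreb3 UMIs. From 2 through 3 to 4 to at least 5 UMIs, neonatal Sox4 was at 23.0, 62.7 and 147 CPM, the last 128 to 166, and adult Sox4 at 24.8, 24.0 and 99.5 CPM (58.9 to 157). The cells with most Vpreb3 thus had the most Sox4 at both ages. Bcl2 was at 62.8, 41.1 and 20.3 CPM in neonatal and at 152, 112 and 27.6 CPM in adult cells, and Ighd at 455, 405 and 303 CPM and at 864, 705 and 437 CPM. Both were lowest in the cells with most Vpreb3. Chchd10 was at 298, 442 and 667 CPM and at 262, 465 and 641 CPM. Selected cells without an Ighd UMI, 185 neonatal and 20 adult, had Spib at 528 and 307 CPM, against 369 and 212 CPM in those with one. Lambda and kappa cells had Spib at 424 and 410 CPM in the neonatal library, so the light chain did not divide them in that gene.

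**Figure D4:**
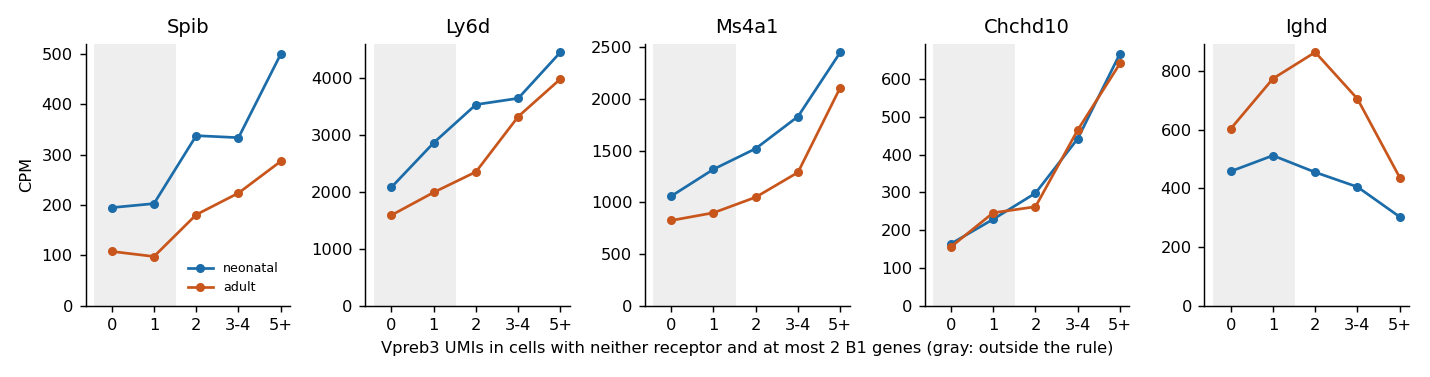
CPM of 5 genes (y axis) by number of Vpreb3 UMIs (x axis) in cells with neither receptor transcript and at most 2 B1 genes, with cells outside the rule on a gray ground. Spib, Ly6d, Ms4a1 and Chchd10 were highest and Ighd lowest in the cells with at least 5 Vpreb3 UMIs in both libraries.

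The selected cells were not set apart sharply in overall expression. In 30 principal components of 2000 variable genes without the gate, mitochondrial, immunoglobulin and sex-linked genes, with cells thinned to 2000 UMIs, 38.1% of the 15 nearest neighbors of a selected neonatal cell were selected cells, against 28.9% of all Cd79a cells. For cells with at least 3 B1 genes the share was 14.7%. In the adult library it was 4.81% for selected cells against 3.99% overall and 4.52% for the other Cd79a cells, so the adult cells lay dispersed among the others.

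The class that shared the Vpreb3 and B1 limits had lower levels of the raised genes. It held cells with at least 2 Vpreb3 UMIs, a receptor transcript and at most 2 B1 genes (474 neonatal and 984 adult). Spib was at 224 CPM (210 to 239) in the neonatal and 132 CPM (124 to 139) in the adult cells of this class, below the 413 and 223 CPM of the selected cells with no overlap of intervals. Sox4 was at 32.2 CPM (26.9 to 38.3) and 18.6 CPM (16.0 to 21.6). Ighd was at 572 and 963 CPM, above the 369 and 700 CPM of the selected cells. As whole classes the 2 thus differed in these genes, but they were not matched for Vpreb3, at 735 and 411 CPM in the adult library. Selected cells with 2 Vpreb3 UMIs had Sox4 at 23.0 CPM (13.8 to 35.8) in the neonatal and 24.8 CPM (9.97 to 51.1) in the adult library. Both intervals overlapped those of the class with a receptor. Spib in these cells was at 338 CPM (300 to 380), above that class, in the neonatal library. In the adult library it was at 181 CPM (135 to 238), with overlap. Cells with neither receptor, under 2 Vpreb3 UMIs and at most 2 B1 genes (315 and 349) had Spib at 198 and 105 CPM and Bcl2a1b at 83.7 and 101 CPM, against 186 and 124 CPM and 81.4 and 124 CPM in all other Cd79a cells. The intervals of adult Bcl2a1b lay apart (87 to 116 and 120 to 128). Chchd10 was intermediate in the class with Vpreb3 and a receptor, at 278 and 294 CPM.

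Between the ages, 6 of 9 mature follicular genes were higher and 2 of 6 immature genes lower in the selected adult cells than in the selected neonatal cells. The other Cd79a cells also had less Spib (186 and 124 CPM) and Sox4 (25.1 and 11.6 CPM) and more Ighd (500 and 714 CPM) in the adult library. The median of all 2044 measured genes was -0.18 on the log2 scale, adult over neonatal, and 48 genes were higher (2.35%) and 242 lower (11.8%). Centred on that median, 112 were higher and 110 lower. Of the immature list 0 of 6 measured genes were higher and 2 lower, Spib (-0.89, -1.13 to -0.65) and Sox4 (-1.09, -1.67 to -0.55), with a median of -0.51. Of the follicular list 6 of 9 were higher and 1 lower, with a median of 0.63. Ighd was at 369 CPM in neonatal and 700 CPM in adult selected cells (0.92, 0.77 to 1.07), and Neurl3 at 75.7 and 205 CPM (1.44, 1.13 to 1.73). The exception was Cxcr5, the receptor for the follicle chemokine CXCL13, at -0.64, which was short of 1.5-fold once centred on the median of all genes.

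Antigen presentation genes were higher in the adult selected cells, 7 of 11 measured with 0 lower and a median of 0.70. The summed list was at 20620 and 31750 CPM in the selected neonatal and adult cells and at 22070 and 30890 CPM in the other Cd79a cells, so it was higher in the adult library in both groups of cells. H2-Aa, an MHC class II chain, was at 1714 and 3581 CPM (1.06, 1.0 to 1.13), H2-Eb1 had a ratio of 0.98 and the class I gene H2-K1 one of 0.83. Ly6a had the highest ratio of the ranked genes (2.95, 2.64 to 3.27), at 39.2 and 303 CPM, and was at 151 and 612 CPM in the other Cd79a cells. H2-Q7 followed (2.61), though it resembles other class I genes closely enough that its reads are uncertain. Rasd1 (-2.08), Myadm (-1.94), Rilpl2 (-1.90) and Tagln2 (-1.68) were among the 10 lowest, and Atf3 and Ddit3, stress-response factors, were at -1.58 and -1.47. Both stress-response genes were also lower in the other adult Cd79a cells, with Atf3 at 241.5 and 103.4 CPM and Ddit3 at 69.99 and 30.85 CPM. Of the antigen receptor and coreceptor list 4 of 17 measured genes were lower and 1 higher. Among the lower ones were the kinase genes Lyn (-1.0) and Syk (-0.69), and Syk was short of 1.5-fold once centred. Rag1, at 10.1 and 7.01 CPM, did not differ beyond its interval (-0.52, -2.23 to 0.84), nor did Cd93, at 29.4 and 29.5 CPM (-0.75 to 0.69).

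**Figure D5:**
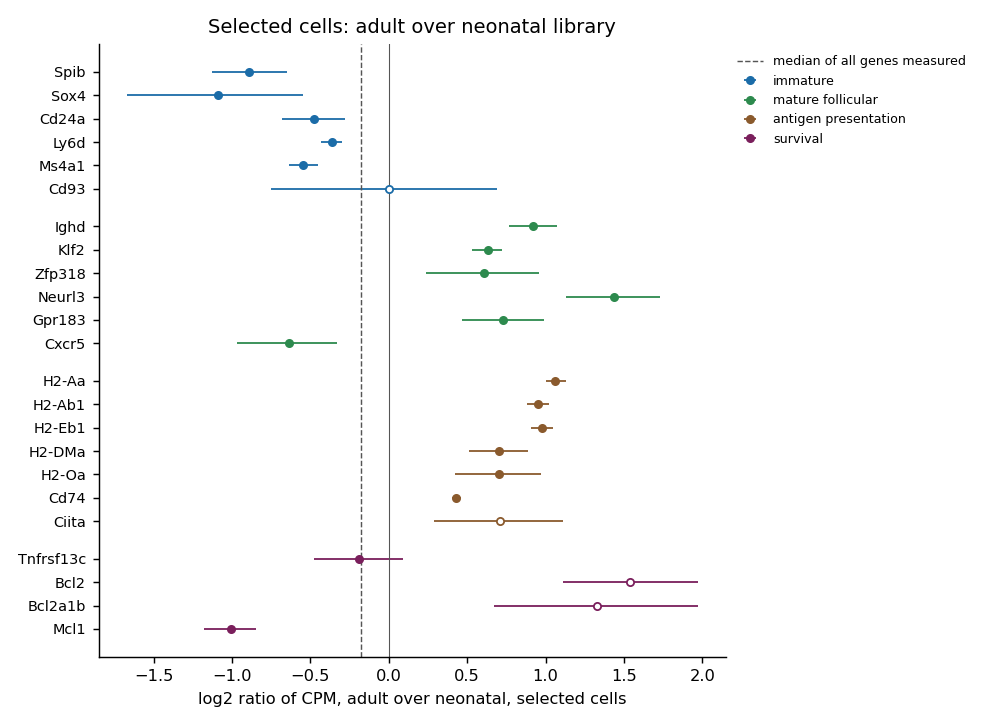
Log2 ratio of CPM, adult over neonatal (x axis), in the selected cells for 23 genes in 4 groups, with exact 95% counting intervals; open circles are genes below the measured limit and the dashed line is the median of all measured genes, -0.18. Spib and Sox4 lay below that line and Ighd and the MHC class II genes above 0.

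Markers of other cell types were few. The T cell list held 5 UMIs in the selected neonatal cells, with 4 of 7 genes at 0, among them Cd3e and Trbc2, and a summed level of 1.44 CPM against 13.2 CPM in the other cells. In the selected adult cells it held 55 UMIs from all 7 genes (77.2 against 12.5 CPM), led by Cd3g with 16, and Nkg7 had 20 UMIs with Ncr1 and Klrb1c at 0. These came mostly from few cells, since 2 adult cells held at least 3 T cell UMIs and 1 at least 3 of the NK list. Leaving out the 34 neonatal and 46 adult Cd79a cells with at least 3 UMIs of a T, NK, macrophage, neutrophil, erythroid or platelet list, of which 4 and 2 were selected cells, kept every direction of the named genes past the fold. Macrophage markers totalled 207 neonatal UMIs, of which 162 were Lyz2, with C1qa and C1qb at 0, and 11 adult UMIs. Of the 481 neonatal UMIs of the endothelial list 475 were Pecam1, with Kdr and Emcn at 0. Neutrophil, fibroblast and cardiomyocyte lists held at most 12 UMIs in either library. Of the germinal center list Bcl6 led, with Gcsam at 0, and of the plasma cell list Mzb1.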

How the data were processed

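The authors aligned the reads to mm10 and counted UMIs with Cell Ranger (3.0.2 in the file headers, a later release in the Methods), and deposited the counts unnormalized for 2 libraries, with one column per barcode and empty droplets included. The antibody rows held 3 and 2 UMIs and were not used. Python 3.11.15 with numpy 2.4.6, scipy 1.17.1, pandas 2.3.3 and scikit-learn 1.9.0 was used from there. The members and gene lists were chosen with earlier results of these data known. No doublet caller was run. Of the selected cells 14 neonatal and 4 adult ones had over double the median UMIs of their library. Named genes were those of the lists and markers and, per comparison, the 10 most raised and 10 most lowered genes, among measured genes with at least 100 CPM on either side, leaving out gate, mitochondrial and sex-linked genes. Ratios of summed counts were given exact conditional binomial intervals, levels exact Poisson intervals and shares exact Clopper-Pearson intervals. The totals behind them were 3473288 and 12929892 UMIs in the neonatal and 712833 and 33910407 UMIs in the adult library, so adult levels of the selected cells are the least precise. A gene at 0 was compared with a limit of 3 counts. Data were also simulated with counting error alone. Of 6092 neonatal and 1749 adult genes, 100 per library were changed by 2-fold and 100 by 1.5-fold. The sign was right for 100% of these changed genes. All those changed by 2-fold and 59% and 51% of those changed by 1.5-fold passed the fold. The true value lay in 95.5% and 95.6% of intervals. Because the intervals assume the same counting error and variation between cells was not simulated, that share does not speak to such variation. Alternatives changed the limits of the rule, the depth, the scaling and the cells left out. Removal of cells with markers of other cell types was added after the data were seen. Some genes of the lists are not reported here by name.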

Additional observations from a re-analysis of the deposited data

Results flagged for a closer look

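For Klf2, a regulator of lymphocyte recirculation, the ratio of the selected over the other Cd79a cells had opposite signs in the 2 libraries, with counting intervals that left out 0 on both sides. The log2 ratio was -0.10 in the neonatal library (-0.15 to -0.05) and 0.17 in the adult library (0.09 to 0.24). With 1 library per age the difference was not tested.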

How the results depend on the processing

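No paired analysis was possible because each age has 1 library. The selected share of neonatal and adult Cd79a cells, 28.9% and 3.99%, became 35.2% and 7.01% with a minimum of 1 Vpreb3 UMI, 22.1% and 2.33% with 3, and 20.7% and 2.94% when none of the B1 genes was allowed. It was 2.98% of adult cells with a minimum of 4000 UMIs and 18.3% of neonatal cells after thinning to 2000 UMIs. The neonatal median of the immature list, 0.79, was 0.66 with 1 Vpreb3 UMI. The adult one, 0.29, was 0.51 with 3 Vpreb3 UMIs and 0.56 with the other cells weighted to the same depths. The neonatal median of the follicular list, -0.45, was -0.28 with none of the B1 genes, -0.82 with weighting and -0.66 as a mean over cells, and the adult one, -0.03, was -0.36 with weighting. The other 79 values of these shares and medians did not move past the limit set for them. For shares the limit was the counting interval of the main value. For medians it was the median half-width of the intervals of the single genes, which is not a counting error of the median itself. Of the ranked genes and markers, neonatal Egr1 turned from -1.26 to 0.11 after thinning and adult Lgals1 from -1.07 to 0.13 with weighting, and the cause was not tested. Beyond these, the sign of a named gene past the fold changed only for Ccr6 (neonatal) and Bcl2l11 (adult) after thinning, for Egr1 and Itgb1 (adult) with weighting, and for Mki67 (neonatal) with weighting, as a mean over cells and without shared barcodes. Of the 28 named genes past the fold in the adult library 14 were still past it with weighting, 16 after thinning and 18 with a minimum of 1 Vpreb3 UMI, and of the 51 neonatal ones 38, 41 and 48. Of the 55 past it between the ages 45 were still past it when centred on the median of all genes. Over all genes, the adult 32 higher and 38 lower genes became 28 and 14 with weighting. The adult selected cells held 712833 UMIs in 144 cells and the neonatal ones 3473288 in 601, and 1749 and 6092 genes could be measured.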
